A study of Mus musculus with 14 samples.

Results

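Cadherins and protocadherins were measured in 14 retinal ganglion cells (RGCs) picked singly from adult mouse retinas, the neurons that send the retina's output to the brain. The genes were those whose symbol is Cdh followed by a number, or begins with Pcdh, and that have a probe set naming no other gene. There were 56 such genes among the 18193 genes on the array, covered by 101 probe sets, and a gene with several was read from the brightest of them on average (mean log2 signal). All 14 cells form 1 group, tdTomato+ RGCs of PV-Cre mice crossed to the Ai9 reporter on a mixed background of 129P2/OlaHsd, C57BL/6 and 129 SV, so every cell carried the Cre and the reporter allele and no control cells stand beside them. In this cross, tdTomato marks any cell in which Cre driven by Pvalb, the parvalbumin gene, has ever acted, and red cells were picked by hand, 1 array per cell. The labels name no animal for any cell, so cells may share one, and everything below is a description with no test.

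Cadherins are calcium-dependent adhesion proteins that bind the same cadherin on a neighbouring cell. Classical type I and type II cadherins couple to the actin skeleton through catenins, whereas the delta protocadherins signal through other partners and adhere more weakly. The clustered alpha, beta and gamma protocadherins are each chosen by a neuron from an array of alternative promoters, and the resulting mix of isoforms lets a neuron recognise its own branches. In the retina, cadherins help axons and dendrites of matching cell types find the same layer.

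Signals are MAS5 values, a linear intensity in arbitrary units, and a gene was called detected in a cell where it reached 8 times the median signal of that cell's array, which placed the threshold between 64.2 and 440 among the cells. The cells had 7897 ± 2464 probe sets detected (SD, n = 14), with 4191 in cell 5 and 11910 in cell 12. All 13 measured RGC markers were detected in at least 7 cells, and each cell had 9 to 13 of them. Rod markers stood apart in cells 3 and 6, where 10 of 13 were detected with summed signals of 156101 and 74677, against 1 to 4 markers and summed signals of 355 to 19028 in the other 12 cells. Cell 6 also had 7 of 13 Müller glia markers, with 0 to 5 elsewhere, and no cell had more than 4 markers of any of the 9 other retinal and vascular lists. By summed Müller glia signal cell 6 did not stand apart, at 64414 against 79080 in cell 1 and 50761 in cell 13. No 2 arrays were identical, and their correlations on the log2 scale lay between 0.34 and 0.68. An undetected gene in 1 amplified cell may still be expressed, since transcripts can be lost before amplification.

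Of the 56 genes, 30 (53.6%) were detected in at least 1 cell, beside 58.2% of all genes. At least 7 cells had Cdh4, Pcdh7, Pcdh8, Pcdh9 and Pcdh10, which is 8.93% of the members, beside 24.8% of all genes. Where each gene was the mean of its probe sets, 2 members reached 7 cells, Cdh4 and Pcdh8 with 9 each. None was detected in all 14 cells, as 2.64% of all genes were. Another 14 members were found in 2 to 6 cells, 11 in 1 cell and 26 in none. Of the 784 values, 102 (13.0%) were detections, beside 25.2% of the values of all genes. Among genes detected at all, the median was 2 cells for members and 5 for all genes. Most detections were not marginal, since 87 of the 102 were at least 2 times the threshold and 70 had a signal of at least 1000. Most members were thus seen in few cells or none.

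**Figure D1:**
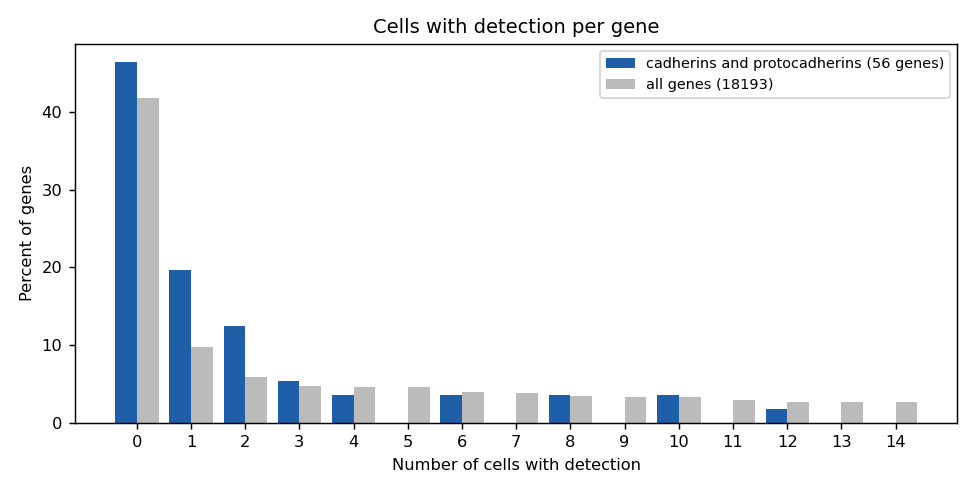
Percent of genes (vertical axis) at each number of cells with detection (horizontal axis), for the 56 cadherins and protocadherins (blue) and all 18193 genes (grey). Members held 46.4% at 0 cells and 19.6% at 1 cell, against 41.8% and 9.78% of all genes, and no member reached 13 or 14 cells.

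Cdh4, or R-cadherin, a type I cadherin first described in the retina, was the most widely detected member. Its signals in the 12 cells that had it were 2089 at the lowest, 5960 at the median and 27304 at the highest, and the strongest were cell 3 (27304), cell 10 (26244) and cell 6 (16897). Cells 5 and 8 lay far below, at 19.8 and 99.0, so detected and undetected cells were separated by 21.1 times. A second Cdh4 probe set nevertheless read 7213 in cell 8, which leaves cell 5 as the cell in which no Cdh4 probe set was detected. Another Cdh4 probe set was detected in 6 of the 12 cells. The strongest cells, 3 and 10, were not among them, with the other probe sets at 4.55 and 3.21 in cell 3 and 15.3 and 16.4 in cell 10. Cdh2, the N-cadherin of most neurons, was detected in cells 2 and 4, at 1266 and 3678, and at no more than 162 elsewhere. Its other probe set read 2494 and 3384 in those cells and 1268 in cell 1. Cdh15, the M-cadherin of muscle, reached 6881 in cell 10 and only 122 in cell 2, where the threshold was 119. Cdh3, or P-cadherin, was just above the threshold in cell 5 (74.3 against 65.3), and Cdh1, the E-cadherin of epithelia, was not detected.

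Type II cadherins, which bind partners of their own subclass and mark groups of neurons, were sparse. Of the 11 measured, 5 (45.5%) were detected, in 1 to 3 cells each, beside 58.2% of all genes. Over all 11, 5.84% of the values were detections, beside 25.2% over all genes. Cdh22 reached 761 in cell 1 and 1786 in cell 7. Cdh6, which in mice marks RGCs that innervate nuclei outside the image-forming pathway, was detected at 957 in cell 12, where its second probe set read 1164, and at 189 in cell 9. Cdh20 was found in cell 14 only (2739, with 140 at most in any other cell), and Cdh11 in cell 2 (1623, and 5405 by its other probe set, which also read 454 in cell 4). Cdh7 was detected in cells 4, 7 and 10, at 176 to 1209, and its other probe sets added cells 2, 9, 12 and 14. Cdh8 and Cdh9, known in the mouse retina from bipolar cells, were not detected, and neither were Cdh10, Cdh18, Cdh19 and the endothelial Cdh5. No cell had more than 2 type II cadherins, and 6 cells had none.

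Cdh13, or T-cadherin, is held to the membrane by a lipid anchor and lacks the tail that binds catenins. It was detected in 6 cells, at 1359 in cell 3, 27994 in cell 5, 1074 in cell 7, 3254 in cell 8, 238 in cell 12 and 9521 in cell 13. In the other 8 cells it lay between 2.38 and 57.1. Its strongest cell, cell 5, was the cell in which no Cdh4 probe set was detected. The other Cdh13 probe sets were not detected in cell 5 either, at 28.1, 49.2 and 28.6 against a threshold of 65.3. Another Cdh13 probe set was detected in 4 of the 6 cells, all but cells 5 and 7, and in cell 6. The more distant cadherins Cdh16, Cdh17, Cdh23 and Cdh26 were not detected in any cell.

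**Figure D2:**
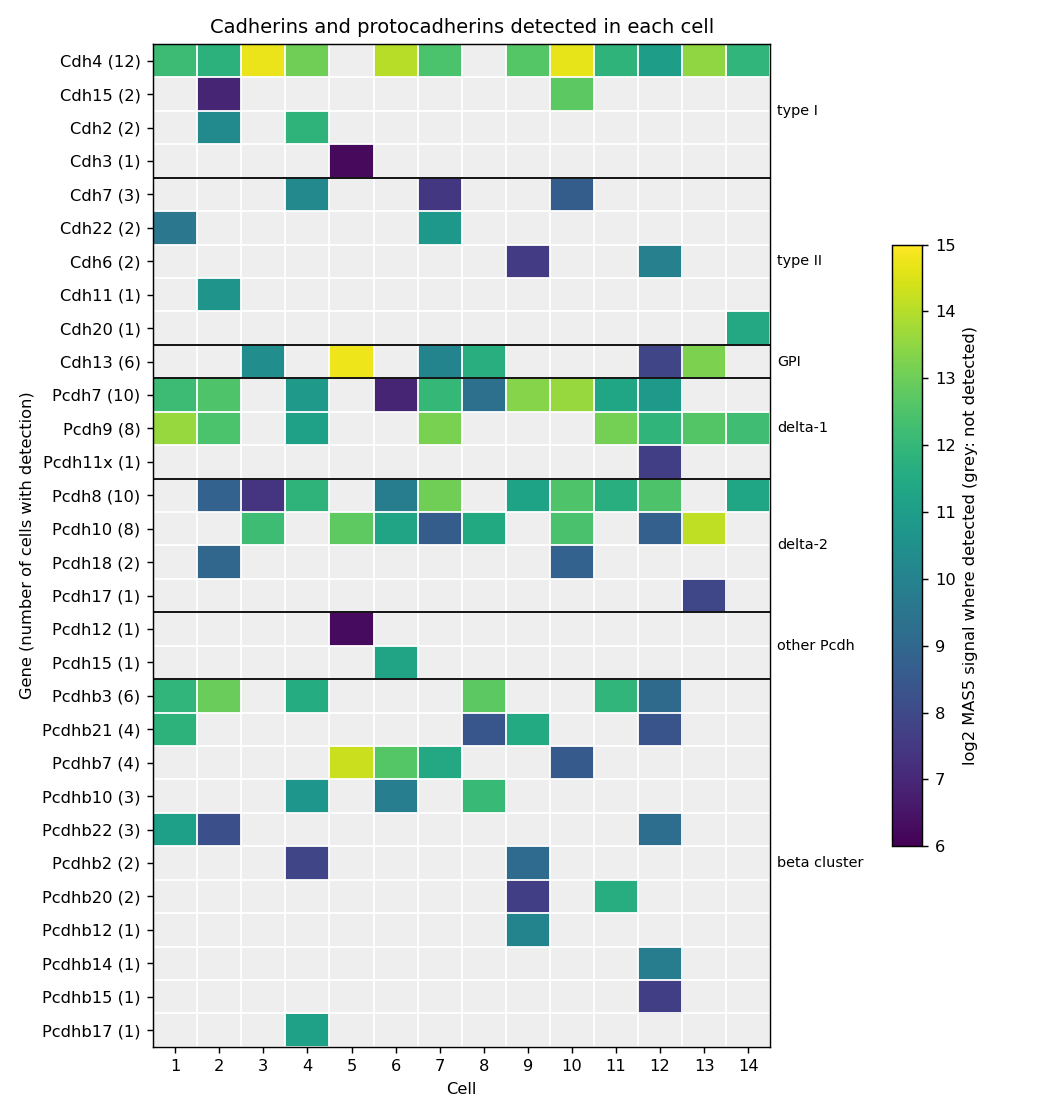
Detected signals (log2 MAS5 signal, colour) of the 30 members found in at least 1 of the 14 cells, grouped by subfamily, with undetected values in grey and the number of cells in brackets. Cdh4 and 4 delta protocadherins filled most columns, and the 11 beta genes were scattered below them.

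The delta protocadherins carried 40 of the 102 detections, with 7 of 9 (77.8%) detected, beside 58.2% of all genes. Of their values, 31.7% were above threshold, beside 25.2% over all genes. Pcdh7 and Pcdh9 belong to the delta-1 group, which has a longer extracellular part, and Pcdh8 and Pcdh10 to the delta-2 group. Pcdh7 was detected in 10 cells, at 121 in cell 6 (1.07 times the threshold), a median of 3300 and 12665 in cell 10, and the other 4 cells were at 21.9 or below. Another Pcdh7 probe set was detected in 5 of these 10 cells (1, 4, 7, 9 and 11), and the last one in none. In cell 10 they read 15.4 and 11.6. As the mean of its probe sets, Pcdh7 was detected in 3 cells. Pcdh8, or arcadlin, which in rats is induced by synaptic activity and draws N-cadherin into the cell, was detected in 10 cells, with 162 in cell 3, a median of 2900 and 8563 in cell 7. A second Pcdh8 probe set was detected in 9 of these 10 cells, all but cell 3. The chosen probe set of Pcdh9 had the widest gap. Its 8 cells lay between 2283 and 12480, with a median of 5840, and its 6 other cells at 25.8 or below, a gap of 88.5 times. Another Pcdh9 probe set was detected in 4 of these 8 cells and, at 426, in cell 9, and the last one in none. Pcdh10, or OL-protocadherin, which recruits the WAVE actin regulators to contacts between neurons, was detected in 8 cells, with 402 in cell 7, a median of 3760 and 18048 in cell 13. Its undetected cells were at 1.68 to 65.0.

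The rarer delta genes were Pcdh18 in cells 2 and 10 (507 and 456), Pcdh17 in cell 13 (239) and the X-linked Pcdh11x in cell 12 (206). Of the other 2 probe sets of Pcdh18, one read 3278 and 512 in these cells and was also detected in cells 7, 9 and 12, and the other was detected in none. Pcdh1 was not detected, and Pcdh19, which is X-linked and altered in a form of human epilepsy, was detected only by another of its probe sets, at 888 in cell 1. Of the other unclustered protocadherins, Pcdh15, a partner of Cdh23 in the hair cell tip link that is also found in photoreceptors, reached 2430 in cell 6 and 50.2 at most elsewhere. The other Pcdh15 probe sets were not detected in cell 6, at 4.03 and 0.897. Cell 6 is 1 of the 2 cells with 10 of 13 rod markers, and in the other one, cell 3, Pcdh15 was not detected. The part of rod transcripts in the Pcdh15 signal was not tested. The endothelial Pcdh12 was marginal in cell 5 (77.7), where 1 of 10 endothelial and pericyte markers was detected, and Pcdh20 was not detected.

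**Figure D3:**
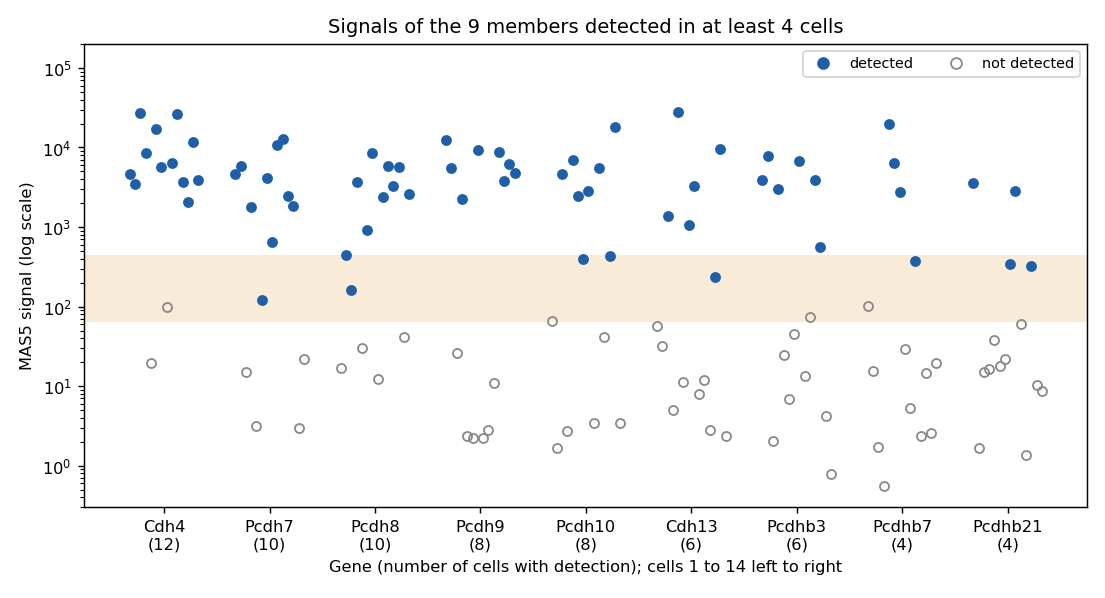
MAS5 signals (log axis) of the 9 members detected in at least 4 cells, with cells 1 to 14 from left to right within each gene, filled where detected and open where not. The band spans the thresholds of the 14 arrays, 64.2 to 440, and Cdh4 and Pcdh9 have the widest empty gap between filled and open points.

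Pcdh7, Pcdh8, Pcdh9 and Pcdh10 formed combinations that differed from cell to cell. Of the 16 possible combinations of 4 genes, 10 were seen. How many combinations 4 other genes of similar frequency would give was not tested. Pcdh7, Pcdh8 and Pcdh9 without Pcdh10 was the most frequent, in cells 2, 4 and 11. Pcdh7, Pcdh8 and Pcdh10 without Pcdh9 was seen in cells 6 and 10, and all 4 genes together in cells 7 and 12. The remaining 7 cells each had a combination of their own, with Pcdh7 and Pcdh9 in cell 1, Pcdh8 and Pcdh10 in cell 3, Pcdh10 alone in cell 5, Pcdh7 and Pcdh10 in cell 8, Pcdh7 and Pcdh8 in cell 9, Pcdh9 and Pcdh10 in cell 13, and Pcdh8 and Pcdh9 in cell 14. No cell lacked all 4, and over all 9 delta genes a cell had 2.86 ± 1.1 (SD, n = 14), between 1 and 5. The 10 combinations became 7 where detection needed a signal of 1000, 6 where each gene was the mean of its probe sets, and 9 where any probe set counted. Pcdh8 in cell 3 and Pcdh7 in cell 6 were near the threshold, at 1.33 and 1.07 times. Without Pcdh8, cell 3 would have Pcdh10 alone, like cell 5.

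The sequences before the starts of these 4 genes are shown because the combinations above are made of these genes. Each is the 250 bases upstream of the annotated start in RefSeq (GRCm38.p6), read on the gene's strand, at chr5:57717831-57718080 (+) for Pcdh7, chr14:79771313-79771562 (-) for Pcdh8, chr14:93890680-93890929 (-) for Pcdh9 and chr3:45378148-45378397 (+) for Pcdh10. Capitals mark matches, on either strand, to the 4 motifs searched, a GC box, a TATA box, an E-box and the core of an EBF site.
Pcdh7: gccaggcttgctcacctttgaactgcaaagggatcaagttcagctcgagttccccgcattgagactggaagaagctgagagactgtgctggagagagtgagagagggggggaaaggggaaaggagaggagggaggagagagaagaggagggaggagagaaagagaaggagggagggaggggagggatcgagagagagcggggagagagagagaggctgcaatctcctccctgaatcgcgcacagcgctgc
Pcdh8: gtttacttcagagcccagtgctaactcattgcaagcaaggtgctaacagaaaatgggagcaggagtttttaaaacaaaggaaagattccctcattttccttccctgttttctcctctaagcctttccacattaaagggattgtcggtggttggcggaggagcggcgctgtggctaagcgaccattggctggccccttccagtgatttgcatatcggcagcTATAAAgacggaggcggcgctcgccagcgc
Pcdh9: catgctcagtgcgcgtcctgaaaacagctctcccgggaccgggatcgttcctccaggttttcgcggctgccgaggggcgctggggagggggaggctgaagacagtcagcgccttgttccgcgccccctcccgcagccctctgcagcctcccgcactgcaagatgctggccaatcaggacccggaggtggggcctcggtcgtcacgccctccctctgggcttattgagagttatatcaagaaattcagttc
Pcdh10: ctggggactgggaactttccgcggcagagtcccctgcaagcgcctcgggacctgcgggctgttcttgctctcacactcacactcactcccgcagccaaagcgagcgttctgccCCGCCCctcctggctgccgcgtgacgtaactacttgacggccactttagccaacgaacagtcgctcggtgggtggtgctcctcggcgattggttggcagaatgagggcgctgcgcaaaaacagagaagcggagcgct
Pcdh10 had 22 CG dinucleotides and 63.2% G or C, and Pcdh9 had 18 and 63.6%, beside medians of 6 and 52.4% over 32851 upstream windows of the same length. Pcdh8 had 11 and 51.2%, and Pcdh7, whose window is rich in purine repeats, had 7 and 58.4%. The window of Pcdh8 held a TATA box (TATAAA) beginning 30 bases before the start, as 12.4% of all windows held one somewhere. That of Pcdh10 held a GC box, GGGCGG on the opposite strand, beginning 137 bases before the start, as 32.7% of all windows did on either strand. The E-box, spelled CANNTG, was in 66.2% of all windows and in none of these 4. The EBF core, spelled CCCNNGGG, was in 11.8% of all windows and likewise in none of the 4. No overlap between motifs arose. A match is only a run of letters, and Pcdh9 has 2 starts in the table, of which one is shown.

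Pairs were compared by the Jaccard index, the cells that have both genes divided by the cells that have either, among the 8 members detected in 4 to 10 cells. The 28 pairs had a median of 0.273. Pcdh10 and Cdh13 were highest at 0.75, since all 6 cells with Cdh13 also had Pcdh10. In cells 3, 5, 7, 8, 12 and 13 Pcdh10 read 4672, 6928, 402, 2841, 437 and 18048. The 2 cells with Pcdh10 and without Cdh13 were cell 6 and cell 10, with Cdh13 at 11.3 and 11.9, although another Cdh13 probe set read 638 in cell 6. The overlap was lost where each gene was the mean of its probe sets, with Pcdh10 detected in 1 cell, Cdh13 in 3 and none shared. Of the 4896 other genes detected in 4 to 10 cells, 15 (0.306%, Cdh13 included) overlapped with Pcdh10 at least as much. Genes in 4 or 5 cells could not reach 0.75, since Pcdh10 was in 8 cells, so that share is not matched for number of cells. The pair was also the highest of the 28, so the share describes a chosen value. The correlation of the pair on log2(signal + 32) was 0.72 over 14 cells, which differ in depth and may share animals. Both genes were detected in cells 5 and 13, the cells with the fewest probe sets, and their correlations with the number of probe sets were -0.52 for Pcdh10 and -0.48 for Cdh13. Without these 2 cells Cdh13 was detected in 4 cells, all among the 6 with Pcdh10. The part of depth in this overlap was not tested.

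The next pairs were Pcdh7 with Pcdh8 (0.667, 8 shared cells), Pcdh7 with Pcdhb3 (0.6, all 6 Pcdhb3 cells) and Pcdh9 with Pcdhb3 (0.556, 5 cells). Another 3 pairs tied behind them at 0.5, namely Pcdh10 with Pcdhb7, Pcdh7 with Pcdh9 and Pcdh8 with Pcdh9. Genes detected in many cells overlap more through their number of cells alone. Whether these pairs overlapped more than other genes of the same frequency was not tested. At the low end, Pcdh9 and Pcdhb7 shared cell 7 alone (0.0909), and Pcdh10 with Pcdhb3 and Pcdh8 with Pcdhb21 had 0.167. Pcdh9 and Pcdh10 overlapped in cells 7, 12 and 13 (0.231). Of the genes in 4 to 10 cells, 26.4% overlapped with Pcdh10 as little or less. Those genes were not matched to Pcdh9 for number of cells, so the share cannot tell whether this overlap was low for its frequency. In cells 7 and 12 Pcdh10 had its 2 lowest detected signals, 402 and 437, beside Pcdh9 at 9251 and 3822. Cell 9 had neither gene by the chosen probe sets, and the other Pcdh9 probe set read 426 there.

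Beta protocadherins, which are single-exon genes in 1 cluster and are each read from their own promoter, were detected for 11 of the 22 measured. They made 28 detections, 9.09% of their values beside 25.2% over all genes, and none was in 7 cells. A cell had 2.0 ± 1.62 beta genes (SD, n = 14). Cell 12 had 5 (Pcdhb3, Pcdhb14, Pcdhb15, Pcdhb21 and Pcdhb22), cells 4 and 9 had 4 each, and cells 3, 13 and 14 had none. Pcdhb3 was the most frequent, at 558 in cell 12, a median of 3850 and 7794 in cell 2 over 6 cells. Pcdhb7 read 19796 in cell 5, 6342 in cell 6, 2764 in cell 7 and 376 in cell 10. Pcdhb3 was at 74.4 or below in those 4 cells, and Pcdhb7 at 101 or below in the 6 with Pcdhb3, so the cells of these genes did not overlap. Of the 4896 other genes in 4 to 10 cells, 6.82% shared no cell with Pcdhb7 and 0.47% none with Pcdhb3, Pcdhb3 and Pcdhb7 included. The pair was chosen as the lowest of the 28. These shares are not matched for number of cells, since genes in 9 or 10 of the 14 cells must share a cell with Pcdhb3, which was in 6.

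Pcdhb21 was found at 3601 in cell 1, 343 in cell 8, 2866 in cell 9 and 325 in cell 12, again in no cell with Pcdhb7. Another Pcdhb21 probe set was detected in none of these cells but read 464 in cell 3, which had no beta gene by the chosen probe sets, and a Pcdhb16 probe set read 193 in cell 7. Pcdhb22 had 2164 in cell 1, 291 in cell 2 and 617 in cell 12, and Pcdhb10 had 1703 in cell 4, 917 in cell 6 and 4237 in cell 8. Rarer still were Pcdhb2 in cells 4 (233) and 9 (564) and Pcdhb20 in cells 9 (205) and 11 (3113). Pcdhb12, Pcdhb14, Pcdhb15 and Pcdhb17 were each seen in 1 cell, at 204 to 2281. Among the 11 cells with a beta gene there were 9 combinations, and Pcdhb7 alone was the combination that recurred, in cells 5, 7 and 10. In cell 10 Pcdhb7 was only 1.29 times the threshold. Where any probe set counted, cell 7 had Pcdhb16 beside Pcdhb7. With cells of no beta gene counted as a combination too, there were 10, against 12 where any probe set counted, 13 at 4 times the median and under quantile normalization, and 8 at a signal of 1000. Beta genes are close copies of each other, and whether a probe set also reads a neighbour was not tested. The number of beta genes moved with depth, with a correlation of 0.74 with the probe sets detected (n = 14).

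Alpha protocadherins end in exons that all of them share, and no alpha gene had a probe set of its own. The 6 probe sets that name several alpha genes were read separately from the members. Those naming 14 genes were detected in 12, 10 and 8 cells, at 383 to 18900, 566 to 5260 and 617 to 10100, and those naming 9 genes in 1, 2 and 1. Alpha signal of some kind was seen in 13 cells, all but cell 13, which also had no beta gene. Pcdhgc4, the gamma isoform on which the survival of many neurons depends in mice, was the only gamma gene measured alone and was not detected, at 104 or below.

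All 14 cells differed in their combination over the 56 genes, the most that 14 cells allow. The fewest members that told all cells apart were 6, with 28 sets of that size. These sets were searched in the same 14 cells, and how many genes of other kinds would be needed was not tested. Cells shared few members. The mean Jaccard index of the 91 cell pairs was 0.26 ± 0.122 over members, beside 0.422 ± 0.0975 over all genes detected and 0.33 ± 0.114 over genes in 1 to 12 cells (SD over pairs, which share cells). This index is low wherever genes are in few cells, and detected members had a median of 2 cells against 5 for all genes. Genes matched for the number of cells were not compared, so the lower index says nothing further about members. Cells 7 and 10 were most alike, at 0.545, through Cdh4, Pcdh7, Pcdh8, Pcdh10, Pcdhb7 and Cdh7. Part of this likeness was marginal. Cdh7 was at 1.41 times the threshold in cell 7 and 1.37 times in cell 10, and Pcdhb7 at 1.29 times in cell 10. There were 7 pairs that shared no member, of which 6 involved cell 5 (with cells 1, 2, 4, 9, 11 and 14), and the other was cells 8 and 14. Cell 5 had Pcdh10, Cdh13, Pcdhb7, Cdh3 and Pcdh12 and lacked Cdh4, Pcdh7, Pcdh8 and Pcdh9, and it also had the fewest probe sets.

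A cell had 7.29 ± 2.58 members (SD, n = 14), or 13.0% ± 4.62 of the 56, beside 25.2% ± 7.2 of all genes. The fewest were 4 in cells 3 and 14, and the most were 13 in cell 12, followed by 10 in cells 2 and 4. The count of members followed the number of probe sets detected, with Pearson's r of 0.85 and Spearman's rho of 0.82, and 0.75 and 0.72 without cells 4 and 12. These cells share the threshold rule that sets both counts. A short combination in a shallow cell can therefore not be told apart from loss of transcripts.

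**Figure D4:**
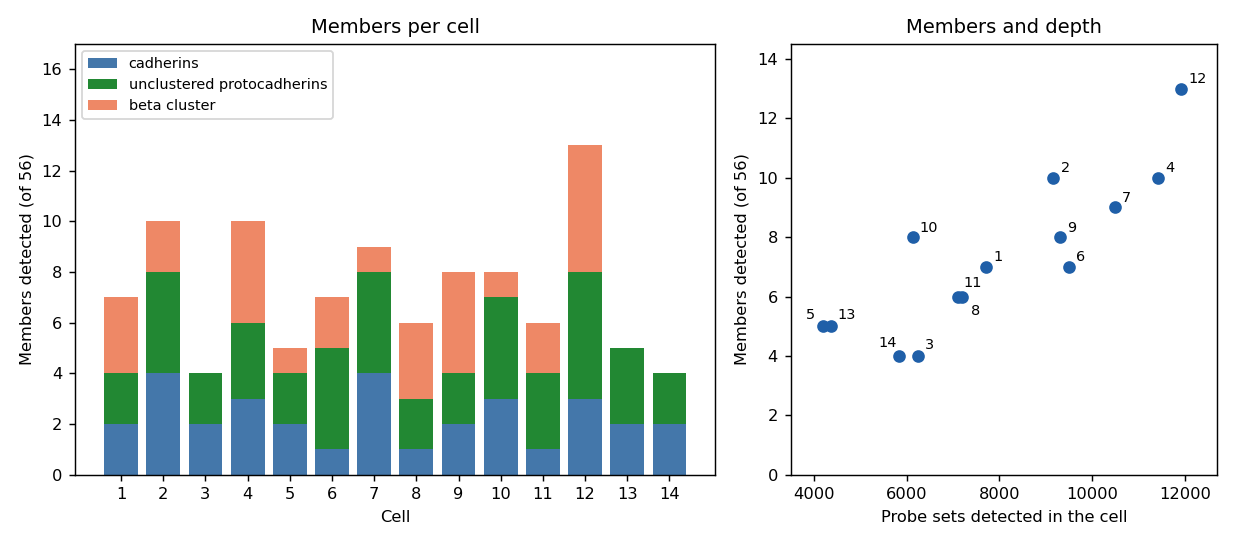
Left, members detected in each cell, split into cadherins, unclustered protocadherins and the beta cluster; right, the same totals against the number of probe sets detected in that cell, with cell numbers beside the points. Cell 12 had the most members (13) and the most probe sets (11910), and cells 3 and 14 had 4 members.

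Where a gene had several probe sets, it was counted how often a detection was shared by another of them in the same cell. Of 75 detections in members with several probe sets, 43 (57.3%) were shared by another probe set. Of 53 with a signal of at least 1000, 33 (62.3%) were. The same shares over all genes were not counted, so whether they are particular to members was not tested. Other probe sets added 15 detections among 303 undetected values (4.95%), in 10 members. Of the 11 genes seen in 1 cell, 8 had other probe sets, and Cdh11, Pcdh11x and Pcdhb15 were the ones detected by them in the same cell. The 5 other probe sets of Pcdh10 were detected in 3, 1, 1, 1 and 1 cells, together in 5 of its 8, so that its pattern rests mainly on 1 probe set.

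Pvalb itself, the gene whose promoter labelled the cells, was lowest in cell 5 (7.27, not detected) and cell 3 (1146), and read 8772 to 65384 in the others. Pcdh9 had a correlation with Pvalb of 0.51 over 14 cells and 0.4 over the 12 without cells 3 and 5. That of Cdh4 was also 0.51 over 14 cells, but 0.11 over the 12. That of Pcdh7 was 0.37 and -0.58, of Pcdh8 0.22 and -0.69, of Pcdh10 -0.32 and 0.32, and of Cdh13 -0.5 and 0.42. The sign for these last 4 genes rested on cells 3 and 5. Spearman's rho with Pvalb over 14 cells was 0.48 for Pcdh9, -0.05 for Cdh4 and -0.24 to -0.06 for these 4 genes.

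Genes whose products work with cadherins were counted in the same way. Of 17 catenins and adaptors, 7 were in at least 7 cells, beside 24.8% of all genes, with a median of 5 cells, beside 1 for the members and for all genes. Lin7a, a synaptic scaffold, was in 14 cells, and Ctnnb1 (beta-catenin), Jup (plakoglobin) and Pkp4 were in 13, while Ctnna2, the neuronal alpha-catenin, and Ctnnd2, the neuronal delta-catenin, were in 11. Ctnna3 and Vcl were not detected. Of 14 genes for the WAVE complex and other protocadherin partners, 10 were in at least 7 cells, with Nckap1, which Pcdh10 binds, in 14, Abi1 in 13 and Cyfip2 in 12. Ppp1ca and Set, for proteins reported to bind Pcdh7, were in 13 and 12 cells.

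Other members of the cadherin superfamily were uneven. Of 22 measured, 7 (31.8%) were in at least 7 cells and 12 in none, beside 24.8% and 41.8% of all genes. Clstn1, a calsyntenin that carries cargo on kinesin, was in all 14 cells at 18800 to 52200, Celsr2, a planar polarity cadherin, was in 12 and Clstn2 in 11. Cdhr1, a photoreceptor cadherin, was detected at 2060 in cell 3 and 313 in cell 10, and cell 3 had 10 of 13 rod markers and cell 10 had 1. Of 8 proteases that cut cadherins, 2 (25.0%) were in at least 7 cells, beside the same 24.8%, namely Adam10 in 12 and the gamma-secretase subunit Psenen in 10. Of 5 nectins and relatives, only Nectin2 was in at least 7 cells, with 8, beside 24.8% of all genes, and Nectin3 was in none. Of 15 genes for promoter choice in the protocadherin clusters, 6 (40.0%) were in at least 7 cells, with the cohesin regulator Pds5b in 13, the cohesin subunits Rad21 and Smc1a in 11 and Ctcf, the insulator protein that binds these promoters, in 8.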

How the data were processed

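The authors amplified oligo-dT primed RNA of single cells by 35 cycles of PCR and hybridised each library to an Affymetrix Mouse430_2 array. The deposited values are linear MAS5 intensity signals, 1 column per cell, with MAS5 named in the submitters' processing notes without a version. They were scaled so that every array had the same trimmed mean of 500 (2% trimmed from each end), and no further normalization was applied. Of 45101 probe sets, 64 controls were left out, and 34945 of the rest named 1 gene, giving 18193 genes. Groups came from the sample labels, and all 14 cells formed 1 group.

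Detection meant a signal of at least 8 times the array median. Correlations used log2(signal + 32). Tables were made with Python 3.11.15, pandas 2.3.3 and numpy 2.4.6, and the counting steps were tested on simulated data. The number of arrays limits the precision. Priming from the poly(A) tail followed by PCR favours transcript ends and can drop rare transcripts. No test was made.

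Members, families, marker and partner lists were chosen with earlier results of these data known. Every member could be named. Signals were given for members in at least 7 cells, and for members in 2 to 6 cells whose lowest detected signal was at least 2 times the highest undetected one. Other members were given by counts and ranges, and single values outside this rule, such as those of Cdh15 and of genes seen in 1 cell, were chosen after their values were seen. Pairs were named at the 5 highest and 5 lowest overlaps, with ties, and Pcdh9 with Pcdh10 was added after its values were seen. Alternatives were thresholds of 4 and 16 times the median, a fixed signal of 1000, the mean of or any of a gene's probe sets, quantile normalization, a pseudocount of 128, and leaving out cells 3 and 6, cells 5 and 13, or cell 1.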

Additional observations from a re-analysis of the deposited data

How the results depend on the processing

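The number of members per cell was 10.1 at a threshold of 4 times the array median, against 7.29 at 8 times, a shift of more than 1 SD between cells. Members detected in at least 7 cells were 2 where each gene was the mean of its probe sets, against 5. A mean lowers genes such as Pcdh10, 1 of whose probe sets carried most detections and which was then detected in 1 cell, so that its overlap with Cdh13 fell to 0 cells. That overlap was 4 to 7 cells at the other thresholds and probe set rules and under quantile normalization. The number of distinct combinations was at its possible maximum under every setting run, so it carries no information on stability. Members detected at all ranged from 21 at a signal of 1000 to 40 at 4 times the median. Of 19 named members, between 2 and 9 changed their number of cells by more than 1.5 times under a given alternative. No paired analysis was possible because there is only 1 group. Signals above background do not show that a gene at or below it is absent, and 40 undetected values were at least 0.5 times their threshold.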
